A study of Mus musculus with 12 samples.

Results

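The genes described here mostly encode subunits of potassium, sodium and calcium channels. They were taken from the deposited table by symbol: those starting with Kcn, with Scn and a digit, or with Cacn, without Kcnj10. Of 137 such symbols, 5 were at 0 in every library (Kcnk16, Kcnk18, Kcnmb3, Kcnmb4os1 and Scn10a), which left 132 of the 18509 genes above 0 in at least 1 library. Among the 132 are 3 non-coding transcripts, Kcnd3os, Kcnmb4os2 and Kcnq1ot1. RNA had been sequenced from both retinas of 6 mice of the p16-3MR line, 12 to 16 weeks old, with both sexes used in the study. Every mouse carried this transgene, a p16 reporter with a luciferase and a fluorescent protein for imaging and a viral thymidine kinase (HSV-TK). The kinase turns ganciclovir (GCV) into a toxic product, and GCV is therefore given to kill cells that express p16. Intraocular pressure (IOP) had been raised to 85 to 90 mm Hg for 60 min in 1 eye of each mouse. The other eye was not treated in this way and is the control here. Daily injections followed, of GCV (25 mg/kg) in mice 1, 2 and 5 and of sham solution in mice 3, 4 and 6, until whole retinas were taken on day 3. This gave 4 groups of 3 retinas, named control, IOP, control GCV and IOP GCV.

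Voltage-gated channels open and close with the membrane potential. Sodium channels carry the rising phase of the action potential, potassium channels end it and set the resting potential, and calcium channels couple voltage to transmitter release. Retinal ganglion cells (RGCs), whose axons form the optic nerve, fire action potentials, whereas photoreceptors and most bipolar cells respond with graded potentials and depend on a separate set of potassium and calcium channels.

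The libraries held an estimated 4000000 to 9060000 fragments, and the IOP library of mouse 6 was the shallowest, with 14844 genes above 0 against 16044 to 16593 in the others. Photoreceptor markers (Gnat1, Sag, Pde6a and Arr3) summed to 15489 to 26468 FPKM in every library, as in retina. FPKM counts fragments per kilobase of transcript, relative to the size of the library, so levels of different genes are compared here per length. Markers of lens (Cryaa, Crygd, Mip, Bfsp1 and Lim2) were higher in IOP retinas, with sums of 1.91 to 17.2 FPKM in control, 35.8 to 2027 in IOP, 31.9 to 3932 in control GCV and 1469 to 2767 in IOP GCV retinas, and 3 of 5 were called higher, also with the eyes paired. Their part in the results was not tested. The RGC markers Rbpms, Pou4f1, Pou4f2, Thy1, Sncg, Nefl and Slc17a6 were lower in the IOP eye of most mice but not of mouse 4. Counts of calls are therefore also given without mouse 4 and without mouse 6.

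In control retinas the most abundant member was Kcnj14, an inward rectifier, at 247 ± 26.4 FPKM (SD, n = 6 retinas). Kcnv2, a silent subunit that assembles with Kv2 channels in photoreceptors, was at 137 ± 13.7 FPKM. Kcnab2, an auxiliary Kv beta subunit, stood at 116 ± 11.3 FPKM and did not differ from Kcnv2 beyond its spread. Below these lay the photoreceptor calcium channel subunit Cacna2d4 at 89.5 ± 8.48 FPKM and Cacng7 at 83.3 ± 6.17 FPKM, which overlapped. The beta subunit Cacnb2 had 69.6 ± 7.38 FPKM. Kcnip4 with 55.6 ± 12.4 FPKM, Cacna1f with 50.8 ± 5.39 FPKM and Kcne2 with 50.2 ± 10.1 FPKM overlapped too, Cacna1f being the pore of the L-type calcium channel of photoreceptor synapses. These were among the 10 members with at least 50 FPKM. A further 21 lay between 10 and 50 FPKM, so that 31 members reached 10 FPKM, and 54 members had a mean under 1 FPKM over the 12 libraries.

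The first question was which channel genes changed after IOP elevation. Averaged over mice with and without GCV, 27 channel genes were lower and 3 were higher in IOP retinas (limma on log2(FPKM + 1), Benjamini-Hochberg adjusted p under 0.05 over 18509 genes). The 27 were 20.5% of the members, against 5.44% of all genes tested called lower. The 3 were 2.27% of the members, against 6.76% of all genes called higher. At an unadjusted p under 0.05, 87 members passed in either direction, against 30.3% of all genes. The median log2 change of the 132 members was -0.50, and that of all genes 0.01. Among the 78 members with a mean of at least 1 FPKM the median was -0.81, and 22 were called lower, or 28.2% against 6.72% of the 12910 genes at that level. Changes on the log2(FPKM + 1) scale understate those of low genes. In whole retina, fewer cells of a type and less RNA per cell cannot be told apart.

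The calls were sensitive to single libraries. With the 2 eyes of each mouse paired, 14 members were called (3 higher and 11 lower, with 4.83% and 2.47% of all genes called in these directions). Of these 14, 13 were also called without pairing, and the other was Kcnip2. Leaving out both retinas of mouse 4, an alternative added after the data were seen, gave 73 calls (3 higher and 70 lower, with 7.41% and 10.5% of all genes called in these directions), and 29 of the 30 genes remained called. Leaving out both retinas of mouse 6 gave 5 calls, Kcng4 and Kcnn4 higher and Kcne1l, Kcne2 and Kcng2 lower (with 4.15% and 0.993% of all genes called higher and lower). In that fit limma gave log2 changes of -1.49 for Kcnip4 (adjusted p = 0.0936), -1.28 for Kcnc1 (0.134), -1.39 for Scn1a (0.125) and -0.63 for Kcnab2 (0.0611). The adjusted p was 0.103 for Cacng5 and 0.0877 for Kcnk6. The genes Kcnab2, Kcne1l, Kcng2, Kcng4, Kcnh7 and Kcnn4 were called in all 12 fits that left out 1 library.

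**Figure D1:**
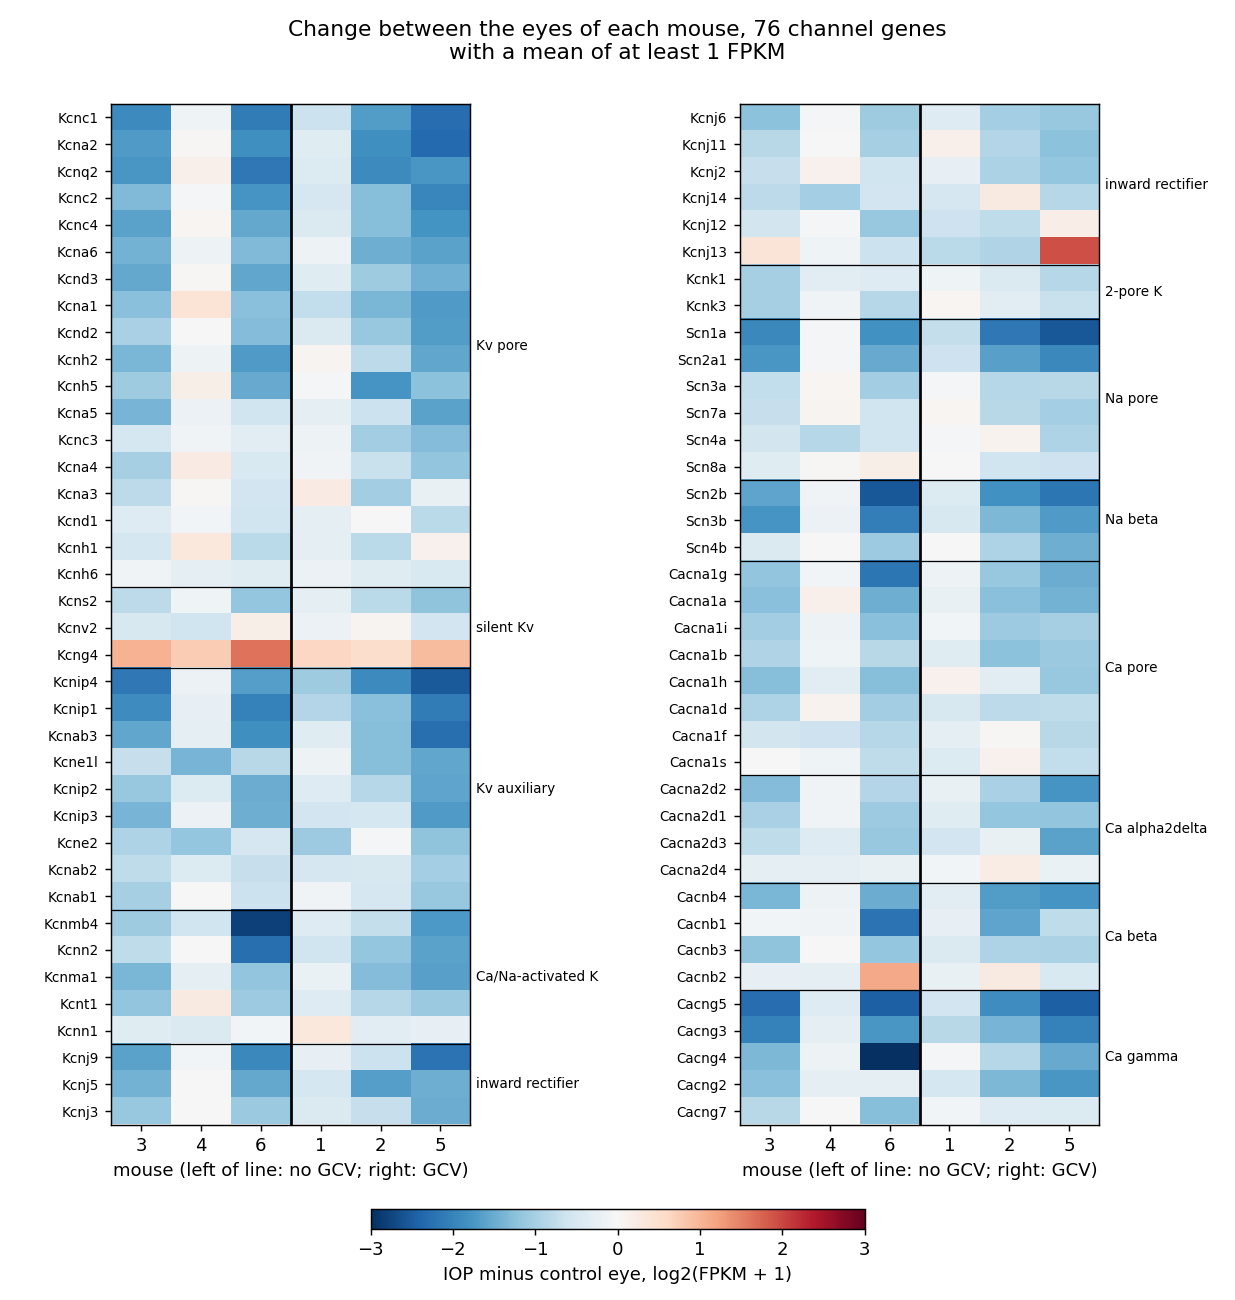
Change between the IOP and the control eye of each mouse (columns) for 76 of the 78 channel genes whose mean reached 1 FPKM (rows, grouped by class), as a difference of log2(FPKM + 1), with blue for lower and red for higher in the IOP eye. Columns 3, 6, 2 and 5 are mostly blue, columns 4 and 1 are pale, and Kcng4 is red in all 6.

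Promoters of 4 members are printed here to show the DNA around the start of genes that rose and genes that fell. The RefSeq windows (GRCm38.p6, 250 bases before to 50 after the start) covered 97 of the 132 members with 133 windows. Kcng4 (chr8:119635631-119635930, minus strand) and Kcnn4 (chr7:24370013-24370312, plus strand) were higher after IOP elevation, Scn1a (chr2:66440788-66441087, minus strand) and Kcnc1 (chr7:46396218-46396517, plus strand) lower. Each window follows 1 transcript start, which is the outer edge of the gene for Kcng4 and Scn1a but lies 437 bases inside it for Kcnn4 and 249 for Kcnc1. Capitals mark matches to any of 12 motifs searched on both strands.
Kcng4: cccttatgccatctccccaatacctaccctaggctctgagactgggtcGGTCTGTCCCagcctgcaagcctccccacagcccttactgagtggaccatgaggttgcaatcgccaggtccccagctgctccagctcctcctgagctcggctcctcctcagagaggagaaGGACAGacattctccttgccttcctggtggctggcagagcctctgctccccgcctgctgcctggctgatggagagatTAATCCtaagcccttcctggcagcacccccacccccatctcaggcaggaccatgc
Kcnn4: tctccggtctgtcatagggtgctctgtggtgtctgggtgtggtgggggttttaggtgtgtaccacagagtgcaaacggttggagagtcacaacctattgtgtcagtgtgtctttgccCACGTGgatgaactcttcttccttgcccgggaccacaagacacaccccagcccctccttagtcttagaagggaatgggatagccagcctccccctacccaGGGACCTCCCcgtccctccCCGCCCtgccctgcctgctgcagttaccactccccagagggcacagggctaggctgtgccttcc
Scn1a: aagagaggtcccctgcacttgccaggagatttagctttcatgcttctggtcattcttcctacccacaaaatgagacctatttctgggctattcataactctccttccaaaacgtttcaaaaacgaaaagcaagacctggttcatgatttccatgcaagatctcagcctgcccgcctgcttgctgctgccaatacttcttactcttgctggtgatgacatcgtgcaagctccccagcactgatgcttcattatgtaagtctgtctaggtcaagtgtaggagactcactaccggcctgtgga
Kcnc1: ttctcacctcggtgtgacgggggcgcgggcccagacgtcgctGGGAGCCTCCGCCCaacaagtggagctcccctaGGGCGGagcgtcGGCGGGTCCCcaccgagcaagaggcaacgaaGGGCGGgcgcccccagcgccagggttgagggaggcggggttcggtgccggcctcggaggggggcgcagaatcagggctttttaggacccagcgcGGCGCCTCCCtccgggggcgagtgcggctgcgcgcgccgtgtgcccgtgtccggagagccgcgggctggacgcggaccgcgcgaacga

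The motifs were chosen after values of these genes had been seen, and all 12 are given. Shares are those of member windows and, after them, of all 32851 windows. AP-1 (TGANTCA) was in 3.76% and 7.81%, CRX (TAATCC) in 5.26% and 7.06%, and a STAT motif (TTCNNNGAA) in 9.77% and 8.30%. The NF-kB motif (GGGA and CC with 4 bases between) was in 31.6% and 20.7%, the GC box (GGGCGG) in 45.9% and 35.7%, and the E-box (CACGTG) in 5.26% and 7.15%. TATAAA was in 5.26% and 13.6%, the homeodomain motif TAATTA in 0% and 5.29%, and a C/EBP motif (TTGCNNAA) in 7.52% and 10.8%. Of the REST motif, the left part (TTCAGCACC) was in 0.752% and 0.371%, the right part (GGACAG), which is contained in the whole, in 25.6% and 22.2%, and the whole (CAGCACC and GGACAG with 2 bases between) in 0% and 0.0365%. The Kcng4 window held CRX, NF-kB and right REST matches, Kcnn4 held NF-kB, E-box and GC box, Kcnc1 held NF-kB and GC box, and Scn1a held none. These are descriptions of letters, with no test.

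On the log2(FPKM + 1) scale the rise was largest for Kcng4. It encodes a silent Kv6 subunit, which forms no channel alone and modifies Kv2 channels. Control retinas of mice 3, 4 and 6 had 8.02, 8.20 and 5.73 FPKM, and their IOP retinas 17.5, 14.7 and 19.8 FPKM. With GCV, mice 1, 2 and 5 had 8.42, 10.3 and 8.999 FPKM in control and 13.5, 15.2 and 18.3 FPKM in IOP retinas. Every IOP retina was above every control retina, which held for 5.47% of all genes. The mean IOP level was 1.99 times the control level, and the log2 change was 0.92 (standard error 0.12, limma adjusted p = 0.00144, 0.0193 with the eyes paired). Without GCV the change was 1.14 (adjusted p = 0.0126) and with GCV 0.70 (adjusted p = 0.0668). With the eyes paired the value without GCV lost its call (adjusted p = 0.0748). Kcng4 lies at chromosome 8, 119623854 to 119635680, in GRCm38.

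The other members called higher were low. Kcnn4, the intermediate-conductance calcium-activated channel of blood and immune cells, was listed at 0, 0 and 0.0641 FPKM in control retinas of mice 3, 4 and 6 and at 0.775, 1.09 and 0.975 FPKM in their IOP retinas. With GCV it had 0.222, 0 and 0 FPKM in control and 0.206, 0.244 and 1.09 FPKM in IOP retinas of mice 1, 2 and 5. Mouse 1 thus showed no rise. Its mean log2 change was 0.69 (standard error 0.13, limma adjusted p = 0.0110, 0.0414 with the eyes paired), and it was called without GCV (0.93, adjusted p = 0.0372, 0.120 with the eyes paired).

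Kcnk6, the 2-pore potassium channel TWIK-2, had 0.0338 to 0.223 FPKM in control retinas and 0.407 to 1.77 FPKM in IOP retinas, without overlap. These levels stand for an estimated 0.995 to 6.00 fragments in control and 10.9 to 60.7 fragments in IOP retinas. The log2 change was 0.66 (standard error 0.15, limma adjusted p = 0.0237, 0.0345 with the eyes paired). Kcnk13, the microglial channel THIK-1, went from 0.0791 to 0.583 FPKM in control to 0.381 to 1.53 FPKM in IOP retinas and did not pass the test (0.39, adjusted p = 0.118). Microglia and leukocyte markers were higher in IOP retinas too. Of the microglia markers (Cx3cr1, P2ry12, Tmem119, Aif1 and Csf1r) 3 of 5 rose (2 with the eyes paired, Csf1r being lost at an adjusted p of 0.0520), with sums of 9.18 to 14.2 FPKM in control, 27.2 to 33.2 in IOP, 12.0 to 12.8 in control GCV and 23.5 to 86.6 in IOP GCV retinas. Of the leukocyte markers (Ccr2, Ly6c2, Lyz2, S100a8, S100a9 and Cd3e) 5 of 6 rose, from sums of 8.31 to 44.96 and 11.03 to 35.7 FPKM in control to 313 to 728 and 161 to 2472 FPKM in IOP retinas, without and with GCV. Ly6c2 was at 0 in 5 of the 6 control retinas and Cd3e was under 0.3 FPKM in all. In mice 3, 4 and 6 the log2 changes were 0.83, 1.06 and 0.89 for Kcnn4, 0.51, 0.65 and 0.80 for Kcnk6 and 0.38, 0.31 and 0.65 for Kcnk13. Marker medians in these mice were 0.84, 1.46 and 0.33 for microglia and 2.31, 2.91 and 3.04 for leukocytes. In mice 1, 2 and 5 the changes were -0.02, 0.31 and 1.06 for Kcnn4, 0.57, 0.27 and 1.18 for Kcnk6 and -0.03, -0.18 and 1.20 for Kcnk13. Marker medians there were 1.08, 0.57 and 1.16 for microglia and 3.56, 2.16 and 4.30 for leukocytes. Genes and markers were thus higher together in mice 3, 4, 5 and 6, whereas Kcnn4 in mouse 1 and Kcnk13 in mice 1 and 2 were not higher. The part of these cells in the values of these 3 genes was not tested.

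**Figure D2:**
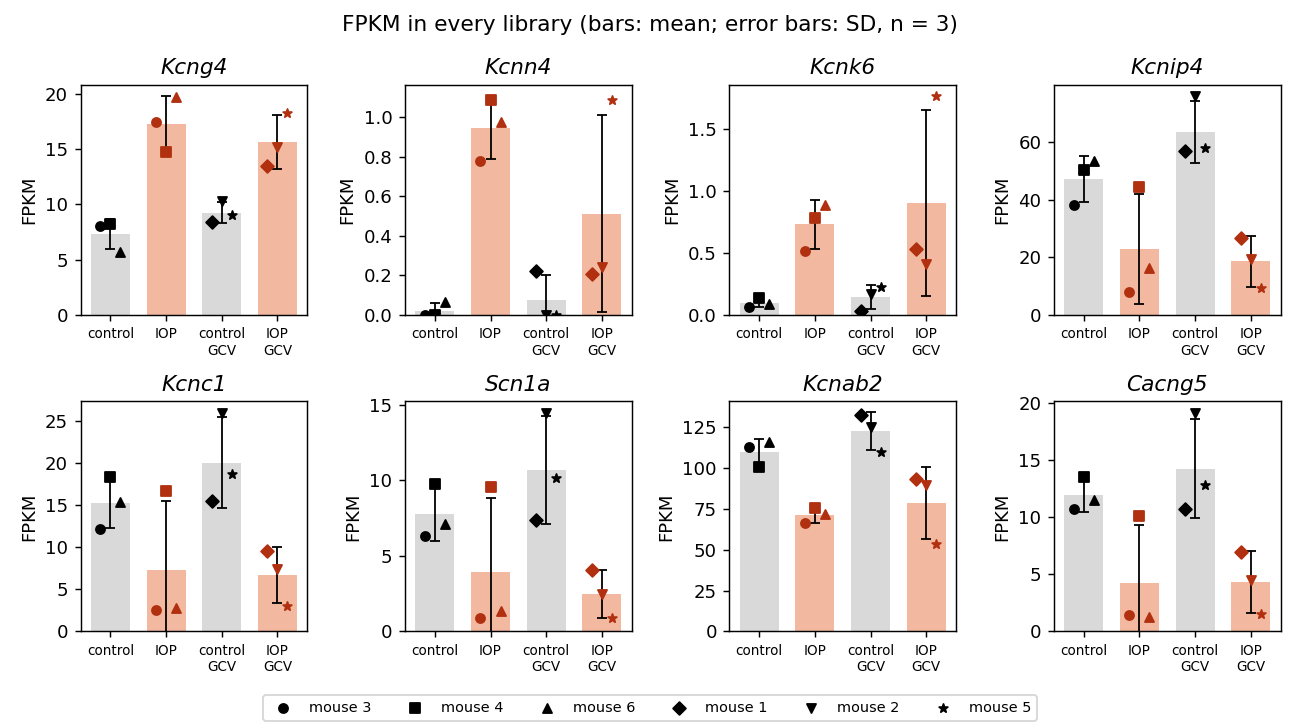
FPKM of 8 channel genes in each of the 12 libraries (symbols mark the mouse), with bars for group means and error bars for the SD of 3 retinas, cut at 0 where they reach below. Kcng4, Kcnn4 and Kcnk6 are higher after IOP elevation, and for Kcnip4, Kcnc1, Scn1a and Cacng5 the IOP retina of mouse 4 (square) stays near the control level.

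Among pore-forming voltage-gated potassium subunits, 6 of 30 members were called lower, among them Kcna6, Kcnb2, Kcnc1, Kcnc4 and Kcnh7, and none higher. With the eyes paired 2 remained, Kcnc1 and Kcnh7. Counts by class, here and for the classes that follow, stand against 5.44% of all genes called lower, or 2.47% with the eyes paired. The 19 members with at least 1 FPKM had a median change of -0.91. Kcnc1 encodes Kv3.1, a channel for fast spiking. It had 12.2, 18.3 and 15.4 FPKM in control and 2.49, 16.8 and 2.84 FPKM in IOP retinas of mice 3, 4 and 6. With GCV the values were 15.5, 26.03 and 18.7 FPKM in control and 9.53, 7.46 and 3.06 FPKM in IOP retinas of mice 1, 2 and 5. Only the IOP retina of mouse 4 overlapped the controls. The mean control level was 2.52 times the IOP level (log2 change -1.46, standard error 0.40, limma adjusted p = 0.0438, 0.0488 with the eyes paired, called in 2 of 12 fits without 1 library).

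Kcnh7, an erg-type channel, fell by 0.77 on the log2 scale (adjusted p = 0.0142, 0.0306 with the eyes paired) from levels of 0.657 to 1.64 FPKM. The abundant members Kcna5 and Kcnh2 had changes of -0.78 and -0.91 and were not called. Kcna3, a channel of lymphocytes and microglia, went from 0.882 to 2.23 FPKM in control to 0.276 to 1.52 FPKM in IOP retinas and was not called (-0.39, adjusted p = 0.218).

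Silent subunits went both ways. Kcng4 rose, and 2 of 10 were lower, Kcng2 and Kcns2 (-0.73, limma adjusted p = 0.0335, 0.0555 with the eyes paired). Kcng2 was the 1 member called among mice with GCV (log2 change -0.50, limma adjusted p = 0.0362, 0.0848 with the eyes paired). It had 0.495 to 0.650 FPKM in control GCV and 0 to 0.185 FPKM in IOP GCV retinas, and its mean change over both treatments was -0.43 (adjusted p = 0.00575, 0.0226 with the eyes paired). All of its levels were under 1 FPKM. Kcnv2 had 130 to 151 and 115 to 142 FPKM in control and 85.4 to 170 and 95.2 to 122 FPKM in IOP retinas, without and with GCV, and was not called (-0.26, adjusted p = 0.291). The value of 170 FPKM was that of mouse 6.

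Auxiliary potassium subunits held 5 calls of 13, Kcnab2, Kcne1l, Kcne2, Kcnip1 and Kcnip4, all lower. With the eyes paired 5 were called, Kcnip2 in place of Kcne1l (adjusted p = 0.0502). KChIP proteins bind Kv4 channels and raise their surface expression. Kcnip4 had 38.3, 50.3 and 53.6 FPKM in control and 7.91, 44.4 and 16.4 FPKM in IOP retinas of mice 3, 4 and 6. With GCV it had 56.8, 76.2 and 58.2 FPKM in control and 26.8, 19.5 and 9.40 FPKM in IOP retinas. The IOP retina of mouse 4 overlapped the controls, and the others did not. The control level was 2.68 times the IOP level (log2 change -1.57, standard error 0.37, limma adjusted p = 0.0256, 0.0351 with the eyes paired). Kcnab2, at 101 to 132 FPKM in control retinas and 53.2 to 92.9 FPKM in IOP retinas, had no overlap in any group (log2 change -0.65, standard error 0.13, adjusted p = 0.0151, 0.0227 with the eyes paired), and mouse 4 was lower too, at 75.3 against 101 FPKM. Kcne2 fell from 34.8 to 61.0 FPKM to 18.7 to 42.6 FPKM (-0.82, adjusted p = 0.0300).

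Inward rectifiers, which hold the resting potential, were lower in 2 of 14 members, Kcnj5 and Kcnj6, both subunits of G protein-gated channels. Their changes were -1.10 (limma adjusted p = 0.0374) and -0.81 (adjusted p = 0.0416), and both were lost with the eyes paired (0.0551 and 0.0559). Kcnj14 just missed the threshold (-0.57, adjusted p = 0.0510), with 239 to 276 and 214 to 281 FPKM in control retinas and 121 to 161 and 126 to 260 FPKM in IOP retinas. Kcnj13, a channel of retinal pigment epithelium, ran from 0.246 to 7.17 FPKM over all libraries with no order by group. Of the calcium- or sodium-activated channels, Kcnma1, the BK channel pore, and Kcnmb4, its beta subunit, were lower among 11 members (-0.999 and -1.21, adjusted p = 0.0348 and 0.0352, and 0.0536 and 0.0646 with the eyes paired). Among 12 two-pore channels, Kcnk4 was lower (-0.73, adjusted p = 0.0390, 0.0601 with the eyes paired).

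Of 9 sodium channel pore subunits, Scn1a (Nav1.1) and Scn2a1 (Nav1.2) were lower, and all 9 had a change below 0. Scn1a had 6.34, 9.76 and 7.14 FPKM in control and 0.916, 9.58 and 1.32 FPKM in IOP retinas of mice 3, 4 and 6. With GCV it had 7.34, 14.4 and 10.2 FPKM in control and 4.08, 2.47 and 0.910 FPKM in IOP retinas. The IOP retina of mouse 4 was at the control level and the other 5 were below all controls. The log2 change was -1.53 (standard error 0.42, limma adjusted p = 0.0422). The call was lost with the eyes paired (adjusted p = 0.0503) and held in 2 of 12 fits without 1 library. Scn2a1 changed by -1.25 (adjusted p = 0.0492, 0.0517 with the eyes paired). Scn8a (Nav1.6), at 6.77 to 10.2 FPKM in control and 5.615 to 9.87 FPKM in IOP retinas, was not called (-0.23, adjusted p = 0.325). Whether its change differed from that of Scn1a was not tested.

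Of the 4 beta subunits, Scn2b and Scn3b were lower (-1.44 and -1.26, limma adjusted p = 0.0429 and 0.0464). Both were lost with the eyes paired (0.0601 and 0.0531). All 4 were lower in each of the 6 mice, against 10.1% of all genes, though Scn4b by only 0.0065 and 0.022 on the log2 scale in mice 4 and 1.

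Calcium channel pores were lower in 2 of 10 members, Cacna1e and Cacna1f, and all 10 had a change below 0. Cacna1f had 54.8 to 56.1 FPKM in control and 29.9 to 38.0 FPKM in IOP retinas without GCV. With GCV it had 42.7 to 48.9 and 26.02 to 43.9 FPKM. Its mean log2 change was -0.52 (standard error 0.12, limma adjusted p = 0.0237, 0.0524 with the eyes paired). Cacna1e, at 0.339 to 0.473 FPKM in control retinas, fell by 0.29 on the log2 scale (adjusted p = 0.0223, 0.0408 with the eyes paired). No alpha2delta subunit was called. For Cacna2d4 the change was small (-0.14, adjusted p = 0.257). Without GCV it had 89.3 to 99.5 FPKM in control and 73.2 to 82.9 FPKM in IOP retinas. The values with GCV were 75.7 to 94.2 and 73.3 to 88.3 FPKM. Of 4 beta subunits Cacnb4 was lower (-1.13, adjusted p = 0.0297, 0.0563 with the eyes paired). Cacnb2 was not called (0.04, adjusted p = 0.925), and its IOP retina of mouse 6 had 157 FPKM against 48.1 to 69.7 FPKM in the other 5 IOP retinas.

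The 8 gamma subunits, several of which serve AMPA receptors as TARPs, held 2 calls, Cacng3 and Cacng5, both lower and both kept with the eyes paired. Cacng5 had 10.8, 13.5 and 11.5 FPKM in control and 1.40, 10.1 and 1.28 FPKM in IOP retinas of mice 3, 4 and 6. With GCV it had 10.8, 19.1 and 12.9 FPKM in control and 6.94, 4.51 and 1.52 FPKM in IOP retinas of mice 1, 2 and 5. Every IOP retina was below every control retina, as for Cacnb1, Cacng3, Kcnab2, Kcng2, Kcnip1 and Kcnmb4 among the members and for 2.44% of all genes. The control level was 3.05 times the IOP level (log2 change -1.67, standard error 0.41, limma adjusted p = 0.0322, 0.0457 with the eyes paired). On the log2(FPKM + 1) scale this was the largest fall of any member. As a ratio of mean FPKM, members at low levels exceeded it, such as Kcnh7 with 4.07 and Kcnq3 with 3.87.

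**Figure D3:**
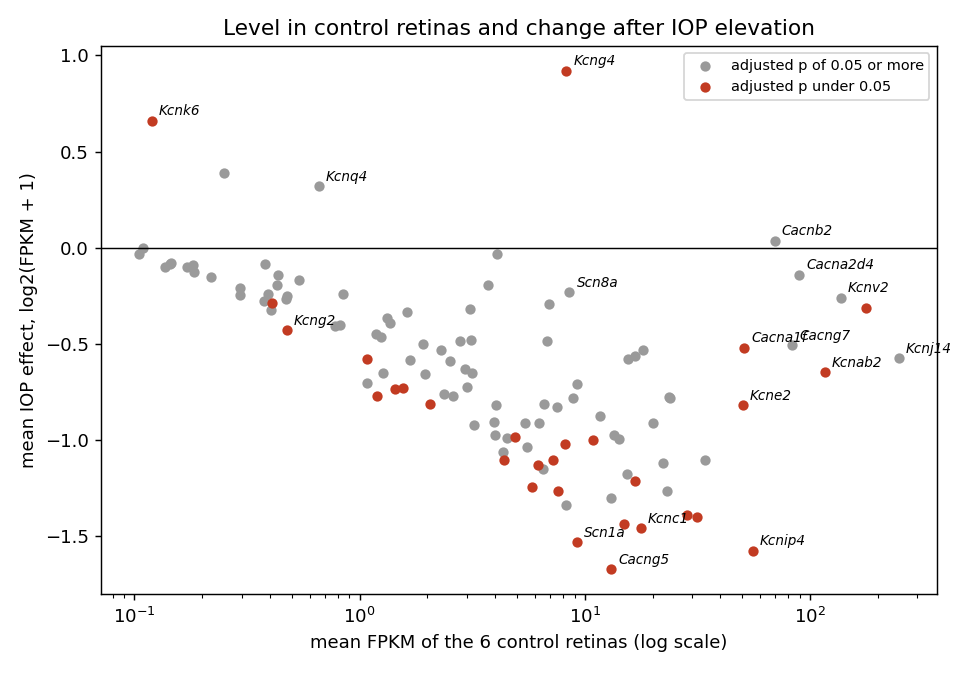
Mean IOP effect on the log2(FPKM + 1) scale against the mean FPKM of the 6 control retinas (log axis) for the channel genes at 0.1 FPKM or more, red where the adjusted p was under 0.05. Of the 10 genes with at least 50 FPKM, 5 are red, and Cacnb2, Cacna2d4 and Kcnv2 lie nearest to 0. Kcnn4, called higher, is under 0.1 FPKM in control retinas and is not drawn.

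Members were also set side by side by level. The 10 with at least 50 FPKM in control retinas had changes of -1.57 to 0.04 with a median of -0.51, and 5 were called lower, against 11.4% of the 1547 genes at that level. The 68 other members with at least 1 FPKM had a median of -0.85, with 67 below 0 and 22 below -1, against 48.3% and 2.68% of the 11363 genes in that range.

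The size of the difference varied between mice. The median change of the 78 members with at least 1 FPKM was -1.01, -0.11 and -1.14 in mice 3, 4 and 6, and -0.31, -0.91 and -1.27 in mice 1, 2 and 5. The medians of all 12910 genes at this level lay between -0.02 and 0.03. In mice 3, 6, 2 and 5, 40, 47, 35 and 54 of the 78 were lower by 1 or more on the log2 scale. In mice 4 and 1 these were 3 and 2. Higher by 1 or more were 1, 2, 0 and 1 in mice 3, 6, 2 and 5, and 0 in mice 4 and 1. How many of all genes passed these limits was not counted, so these counts have no background. Of the 132 members, 55 were lower in the IOP eye of all 6 mice, or 41.7% against 10.1% of all genes, and 2 were higher in all 6, Kcng4 and Kcnk6, against 10.7% of all genes.

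RGC markers were also lowest in mice 3, 6, 2 and 5. Their median change was -1.99, 0.03 and -1.87 in mice 3, 4 and 6, and -0.63, -1.84 and -1.81 in mice 1, 2 and 5. Of these 7 markers 6 were called lower (1 with the eyes paired), with sums of 812 to 1033 FPKM in control, 197 to 896 in IOP, 1026 to 1637 in control GCV and 297 to 655 in IOP GCV retinas, and none was at 0. Photoreceptor markers had medians of -0.48, -0.51 and 0.34 in mice 3, 4 and 6, and -0.43, 0.26 and -0.36 in mice 1, 2 and 5, and 1 of 4 was called lower, Arr3. Of the Mueller glia markers (Rlbp1, Glul, Aqp4 and Slc1a3) 2 of 4 were called lower, Glul (-1.28, limma adjusted p = 0.0174, 0.0393 with the eyes paired) and Rlbp1 (-0.65, adjusted p = 0.0345, 0.0547 with the eyes paired). Aqp4 (-0.25, adjusted p = 0.372) and Slc1a3 (-0.01, adjusted p = 0.958) were not called. The sums of the 4 were 1019 to 1163 FPKM in control, 467 to 658 in IOP, 1266 to 1416 in control GCV and 318 to 806 in IOP GCV retinas. These sums did not overlap between control and IOP, but Glul made up most of them. Medians of the 4 were -0.57, -0.35 and -0.12 in mice 3, 4 and 6, and -0.42, -0.24 and -1.01 in mice 1, 2 and 5. Of the bipolar markers (Grm6, Trpm1 and Prkca) none was called, and all 3 had a change below 0 (median -0.39). Grm6 changed most, by -0.94 (limma adjusted p = 0.0778). Bipolar medians were -0.76, -0.30 and -0.89 in mice 3, 4 and 6, and -0.09, -0.19 and -0.74 in mice 1, 2 and 5. The part of RNA from these cell types in the channel gene results was not tested.

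**Figure D4:**
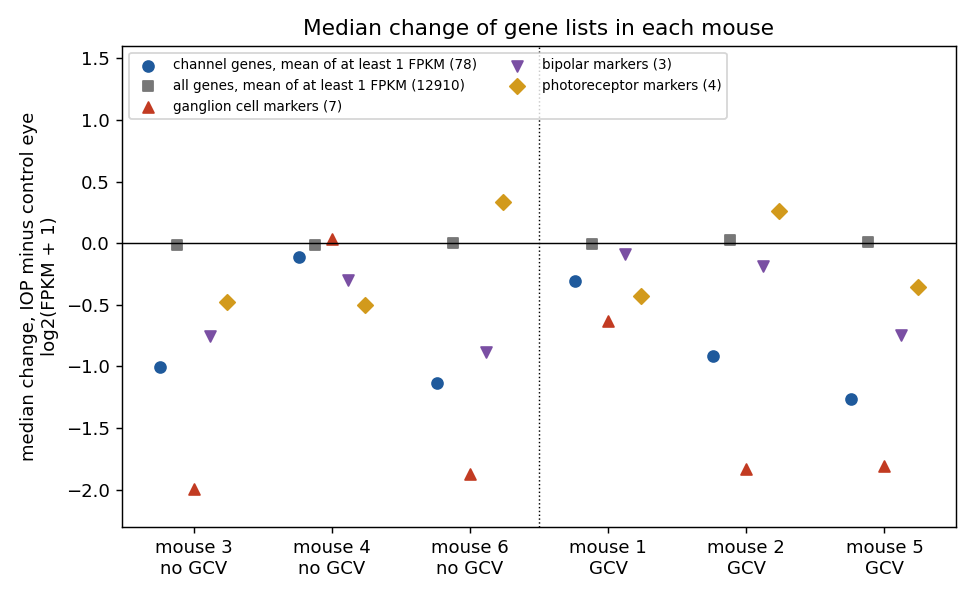
Median change (IOP minus control eye, log2(FPKM + 1)) in each mouse of the 78 channel genes, all 12910 genes whose mean reached 1 FPKM and 3 marker lists. RGC markers and channel genes are lowest in mice 3, 6, 2 and 5 and nearest to 0 in mouse 4, while all genes stay near 0.

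The second question was whether GCV altered these changes. Without GCV, 2 members were called, Kcng4 and Kcnn4, both higher, against 1.42% of all genes called higher, and the median change of the 132 members was -0.51. Without the IOP retina of mouse 4, 60 were called, 3 higher and 57 lower, against 5.25% and 8.25% of all genes. With GCV, Kcng2 was called lower, against 0.157% of all genes, and the median was -0.45. With the eyes paired limma called no member in either arm, against 0.405% of all genes without and 0.778% with GCV. At an unadjusted p under 0.05, not paired, 46 members passed without and 49 with GCV, against 18.9% and 19.2% of all genes. The difference between the arms was tested directly as an interaction, and limma called no member and no gene of the table (0%). At an unadjusted p under 0.05, 1 member passed, against 1.93% of all genes. For Kcng4 the difference was -0.45 with a standard error of 0.24, and for Scn1a -0.55 with a standard error of 0.84.

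Retinas with and without GCV came from different mice. Among IOP retinas no member was called by limma, and 2 passed an unadjusted p under 0.05, Kcne4 and Kcnn4, against 4.18% of all genes. Among control retinas no member was called, and 3 passed an unadjusted p under 0.05, Kcnmb2 and Kcnrg among them, against 1.59% of all genes. There 106 of the 132 members (80.3%) were higher with GCV, against 50% of all genes, with a median of 0.14. All 7 RGC markers (median 0.38), all 4 Mueller glia markers (0.23) and all 5 lens markers (1.71) were higher there too, and none was called. The median SD of the 78 members was 0.17 in control, 0.77 in IOP, 0.26 in control GCV and 0.48 in IOP GCV retinas on the log2 scale, against 0.12, 0.34, 0.14 and 0.20 for all 12910 genes at that level.

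Channel partners and other channels were taken from a list of 52 genes (HCN and cyclic nucleotide-gated channels, auxiliary proteins, pumps and others). Over both treatments 13 of these were lower, or 7 with the eyes paired, against 5.44% and 2.47% of all genes. The lower genes included Rims1, an active zone protein that binds calcium channels (-1.72, adjusted p = 0.0242), Fgf12, a sodium channel regulator (-1.47, adjusted p = 0.0321), and Dpp10 (-1.16, adjusted p = 0.0345), a partner of Kv4 channels.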

How the data were processed

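Whole-retina RNA of 12 retinas from 6 mice had been sequenced as stranded mRNA libraries. The authors counted read pairs on RefSeq exons with HOMER. Their processing notes also name TopHat2, Bowtie2, Cufflinks, Cuffdiff and mm10, without versions. The deposited values were FPKM, a unit inferred from low values times transcript length, of which 75.3% to 81.5% in each library were within 0.1 of a whole multiple of 1 number. The step that made FPKM is not given in the sources used here. Depth was estimated from these multiples. On log2(FPKM + 1), limma 3.58.1 (R 4.3.3) fitted 1 mean for each of 4 groups over 12 libraries, with a variance trend and Benjamini-Hochberg adjustment over 18509 genes, called at an adjusted p under 0.05. P-values measure the spread between 3 mice a group.

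The eyes pair by mouse because they come from 1 animal. Same-mouse deviations from the group means correlated at -0.12, 0.13, 0.21, 0.39, 0.17 and 0.10 in mice 1 to 6 over 12910 genes. Blocked values, or counts of calls with the block, are given where the block changes a call. Members and lists were chosen with earlier results of these data known. Genes named are members called in any comparison, the 3 most abundant of each class, up to 5 of the largest rises and of the largest falls alike in all mice, and members known for a retinal or microglial role. Some genes are not reported here by name and were taken out of the lists of markers and partners, while counts and medians over members still hold them. Kcne4, Kcnmb2, Kcnrg, Kcnip2 and members in short lists were named after their values were seen. The fits were repeated with each library left out, with median-ratio scaling, without the trend, at an unadjusted p, with mouse as a block, within the compared groups alone, at a pseudocount of 0.1 and on genes reaching 1 FPKM in 3 libraries. Coordinates are from RefSeq on GRCm38, the build of mm10, and Scn2a1 is listed there as Scn2a. Python 3.11.15 and pandas 2.3.3 were used.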

Additional observations from a re-analysis of the deposited data

How the results depend on the processing

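For the mean IOP effect, 30 members were called, and 14 with the mouse as a replicate block, 87 at an unadjusted p under 0.05 (30.3% of all genes), 73 without both retinas of mouse 4 (51 with the block, and 10.3% of all genes) and 5 without both retinas of mouse 6 (1 with the block, and 2.34% of all genes). Fits without 1 library called 6 to 85, with 4.51% and 24.5% of all genes called in the fits at these ends. The count was 6 or 7 without a control retina of mice 3, 4 or 6, 8 or 9 without a control retina of mice 1, 2 or 5, 11, 85 and 15 without the IOP retina of mice 3, 4 and 6, and 9 without that of mouse 5. Without GCV, 2 were called, 1 with the filter at 1 FPKM, 0 with the block, 46 at an unadjusted p, and 0 to 60 in fits without 1 library, 60 being without the IOP retina of mouse 4. With GCV, 1 was called, and 0 with a pseudocount of 0.1, with only the groups compared, with the block, with no variance trend and in fits without 1 library (0 to 0), but 49 at an unadjusted p. With the filter the call with GCV was of a gene that rose. For the interaction, GCV in IOP retinas and GCV in control retinas, 0 were called and 1, 2 and 3 passed at an unadjusted p. GCV comparisons are between mice, so no block could be fitted there. The median log2 change was -0.90, -0.91 and -0.90 with a pseudocount of 0.1, without, with and over GCV, against -0.51, -0.45 and -0.50.

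Signs turned only for uncalled genes. Kcnj13, mean effect -0.03, became 0.13 with a pseudocount of 0.1 and 0.10 without mouse 6, with or without the block. Fits without 1 library ranged from -0.41 to 0.24 over both treatments, -0.64 to 0.36 without GCV and -0.69 to 0.63 with GCV. Cacnb2 became -0.20 without mouse 6, with or without the block. Fits without 1 library ranged from -0.18 to 0.16 over both treatments, -0.23 to 0.46 without GCV and -0.25 to 0.0098 with GCV. Scn8a ranged from -0.18 to 0.17 without GCV. Kcnmb4os2 ranged from -0.25 to 0.11 without GCV. Cacna2d4 ranged from -0.10 to 0.062 with GCV. Kcnd3os ranged from -0.033 to 0.094 over both treatments and -0.067 to 0.19 with GCV. Depth limits members under 1 FPKM, and the IOP library of mouse 6 is the shallowest.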
